A study of Mus musculus with 6 samples.

Results

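The cytosines around the 5' ends of 6 genes at 3 imprinted loci of the mouse were described here. These are Airn and Igf2r on chromosome 17, Peg13 and Trappc9 on chromosome 15, and Nespas and Gnas on chromosome 2. Single cytosines were chosen by read coverage and by position. A cytosine entered when each of the 6 libraries had 6 or more reads over it and when it lay within 5 kb of the 5' end of one of these genes (GENCODE annotation of GRCm38). The methylation level of a cytosine was not part of that choice, but the genes were chosen with earlier results of these data known. Of 646645 cytosines with this coverage, 170 were retained, with 11 at Airn, 19 at Peg13, 59 at Nespas, 40 at Gnas, 18 at Igf2r and 23 at Trappc9.

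DNA methylation was measured in the entire cortex of C57BL/6 embryos at E16 (embryonic day 16) by Ox-RRBS (reduced representation bisulfite sequencing after an oxidation step), with 3 libraries of Uhrf1 cKO embryos (Emx1 Cre/+, Uhrf1 -/-) and 3 of heterozygous control embryos (Emx1 Cre/+, Uhrf1 +/-). Uhrf1 brings the maintenance methyltransferase to newly replicated DNA. In the study's crosses a Cre recombinase expressed from Emx1 removed a floxed exon of Uhrf1 in the dorsal telencephalon, so interneurons, vessels and microglia in the dissected cortex kept the gene, and controls had lost 1 copy. In a bulk cortex, a change in the share of such cells and a change in methylation per cell cannot be told apart. Because the libraries hold methylation only, the tissue could not be checked against marker genes. The single strain also means that reads could not be assigned to the maternal or the paternal allele.

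A cytosine's methylation level is the percent of its reads that were still C after oxidation and conversion. The libraries held between 18238737 and 31019082 cytosine calls, in which a read counts once for each listed cytosine it covers, at a median coverage of 13 to 17 reads. The floxed exon 4 of Uhrf1 held 0 listed cytosines, so the deletion could not be read. Over all 646645 cytosines the mean level was 19.6%, 19.4% and 15.8% in cKO replicates 1, 2 and 3, against 15.6%, 39.4% and 38.9% in control replicates 1, 2 and 3. The library labelled control replicate 1 therefore stood at the level of the cKO libraries, against its label, and results are given with and without it. No label ties a library to a litter or a culture. The p-values below measure the spread between libraries, which the quasi-binomial test moderates over the whole table. The exception is the plain binomial test, which treats reads as replicates.

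Genomic imprinting is the expression of a gene from 1 parental copy. It depends on control regions that carry methylation from the egg or the sperm on 1 allele through the life of the animal, so that a bulk tissue reads as partly methylated there. In mouse the Airn promoter, in an intron of Igf2r, is such a region, methylated on the maternal copy. In many tissues the paternal copy transcribes Airn, an antisense RNA that silences paternal Igf2r, the receptor that clears Igf2. Expression was not measured in these libraries. Peg13 is a paternally expressed noncoding RNA within an intron of Trappc9, whose product works in vesicle transport and NF-kB signalling, and its promoter is methylated on the maternal copy. The Gnas locus has several promoters. Nespas and Gnasxl, the start of a large form of the stimulatory G protein alpha subunit, lie in a control region methylated on the maternal copy, exon 1A carries methylation on the maternal copy too, the Nesp promoter carries it on the paternal copy, and the promoter of the common Gs-alpha subunit carries none.

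Stretches that hold some of the counted CpGs are printed to show their spacing and, in the Peg13 stretch, the motif described further on. All are from the RefSeq copy of the GRCm38 genome, on the strand of the named gene, and capitals mark CpGs of which at least 1 cytosine was read in all 6 libraries. The Airn stretch (chr17:12741589-12741751, plus strand) lies in the first intron of spliced Airn and in an intron of Igf2r. The Peg13 stretch (chr15:72809879-72810098, minus strand) lies in the single exon of Peg13. The Nespas stretch (chr2:174299141-174299357, minus strand) lies upstream of Nespas, opposite coding sequence of Gnasxl. The Gnas stretch (chr2:174285343-174285391, plus strand) is coding sequence of Nesp.
Airn: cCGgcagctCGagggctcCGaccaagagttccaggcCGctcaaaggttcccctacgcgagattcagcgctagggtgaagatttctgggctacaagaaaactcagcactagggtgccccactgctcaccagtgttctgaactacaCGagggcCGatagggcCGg
Peg13: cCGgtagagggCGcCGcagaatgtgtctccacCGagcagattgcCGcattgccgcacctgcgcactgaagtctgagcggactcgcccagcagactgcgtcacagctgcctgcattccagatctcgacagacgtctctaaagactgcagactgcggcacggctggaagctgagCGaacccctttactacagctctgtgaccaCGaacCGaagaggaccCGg
Nespas: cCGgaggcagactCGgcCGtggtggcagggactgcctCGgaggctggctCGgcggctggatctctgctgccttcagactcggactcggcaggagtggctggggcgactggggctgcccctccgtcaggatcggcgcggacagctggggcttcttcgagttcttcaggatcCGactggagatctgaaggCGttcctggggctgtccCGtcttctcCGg
Gnas: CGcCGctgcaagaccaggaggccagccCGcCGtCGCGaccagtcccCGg

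For comparison, 2 stretches of the partner genes are shown, which are not control regions. The Igf2r stretch (chr17:12769265-12769308, minus strand) follows the first exon, and the Trappc9 stretch (chr15:73057991-73058118, minus strand) is coding sequence of exon 2.
Igf2r: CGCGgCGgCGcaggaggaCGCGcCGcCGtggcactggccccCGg
Trappc9: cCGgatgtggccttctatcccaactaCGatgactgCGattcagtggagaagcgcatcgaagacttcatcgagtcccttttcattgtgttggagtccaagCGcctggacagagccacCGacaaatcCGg
The MspI site, CCGG, closes each of these stretches because the assay reads inward from it. Of the CpGs in them, 7 of 10 were read at Airn, 9 of 18 at Peg13, 9 of 18 at Nespas, 7 of 7 at Gnas, 9 of 9 at Igf2r and 6 of 9 at Trappc9.

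The 3 control regions kept intermediate methylation in the cKO cortex. Airn (chr17:12741311-12860136) had mean levels of 47.5%, 41.7% and 39.8% in the cKO libraries, against 36.6%, 43.7% and 50.1% in the control libraries. The groups overlapped fully, and the library labelled control replicate 1 was the lowest of all 6. Airn averaged 43.0% ± 3.99 in cKOs and 43.5% ± 6.72 in controls (SD, n = 3 each), a difference of -0.448 points (two-sided exact permutation p = 1.0). Without that library the difference was -3.86 points (exact permutation p = 0.4). With 3 against 3 libraries, or 3 against 2, this test cannot give a p below 0.1.

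Peg13 (chr15:72805600-72810324) had mean levels of 40.5%, 38.9% and 30.8% in the cKO libraries, against 38.8%, 53.5% and 48.3% in the control libraries. The cKO libraries lay below control replicates 2 and 3, with the library labelled control replicate 1 among them. The difference was -10.2 points with all libraries (exact permutation p = 0.3) and -14.2 points without that library (exact permutation p = 0.1). Nespas (chr2:174281237-174295436) had 38.9%, 39.3% and 33.3% in the cKO libraries, against 35.3%, 49.9% and 52.8% in the control libraries, the same arrangement. Its difference was -8.82 points with all libraries (exact permutation p = 0.3) and -14.2 points without the library labelled control replicate 1 (exact permutation p = 0.1). Relative to control replicates 2 and 3, the cKO mean was 91.8% of the control mean at Airn, 72.1% at Peg13 and 72.4% at Nespas. Of the 59 Nespas cytosines 55 lie more than 1 kb upstream. The 4 within 1 kb had 30.7%, 31.3% and 11.2% in the cKO libraries, against 29.2%, 29.4% and 67.9% in the control libraries. There the groups overlapped, the difference was -17.8 points (exact permutation p = 0.6), or -24.3 points without the library labelled control replicate 1 (exact permutation p = 0.3), and the share was 50.1%.

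**Figure D1:**
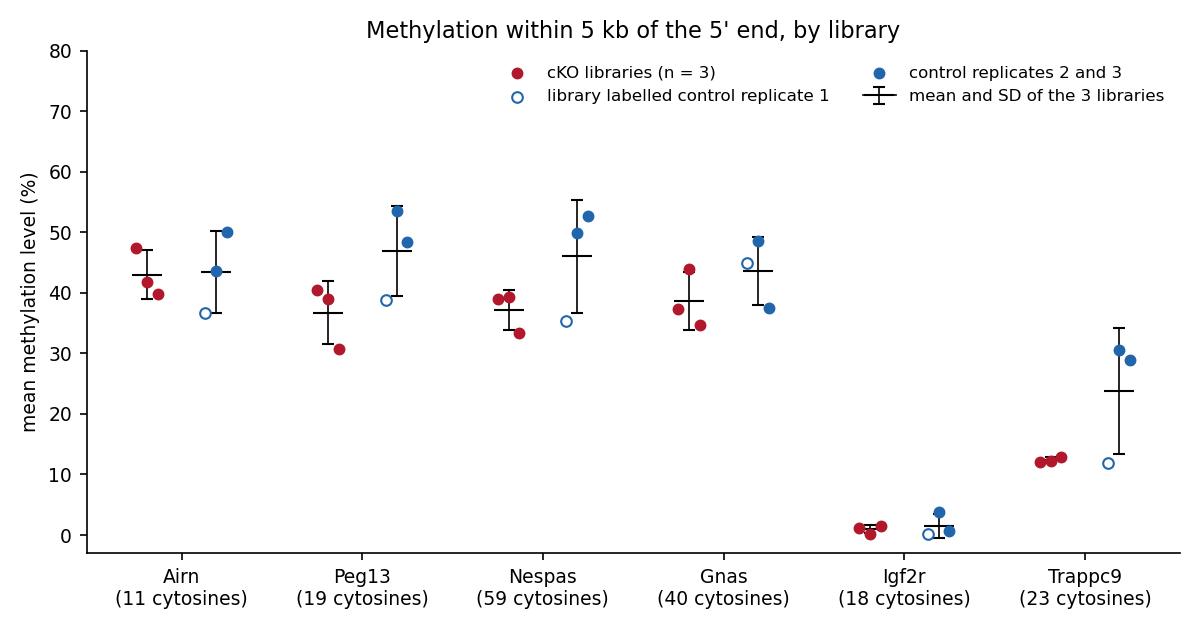
Mean methylation level (%, each cytosine weighted equally) within 5 kb of the 5' end of the 6 genes, 1 point per library, with cKO libraries in red at the left and control libraries in blue at the right of each pair; open circles show the library labelled control replicate 1, and bars give the mean and SD of 3 libraries. Airn, Peg13, Nespas and Gnas lie between 30.8% and 53.5% in every library, Igf2r lies near 0, and only at Trappc9 do control replicates 2 and 3, at 30.5% and 29.0%, stand far above the rest.

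At Gnas (chr2:174284320-174346744) the annotated 5' end is that of Nesp, the neuroendocrine secretory protein promoter. Its 40 cytosines had mean levels of 37.3%, 43.9% and 34.7% in the cKO libraries, against 44.9%, 48.5% and 37.5% in the control libraries. The ranges overlapped, and here the library labelled control replicate 1 lay with the other controls. Gnas averaged 38.6% ± 4.74 in cKOs and 43.7% ± 5.63 in controls (SD, n = 3 each), a difference of -5.01 points (exact permutation p = 0.2). Leaving out that library gave -4.36 points (exact permutation p = 0.5).

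The other annotated transcript starts of Gnas were described in the same way. The annotation does not name these promoters, and the names Nesp, Gnasxl, exon 1A and Gs-alpha were given to the starts from their known order along the locus. Within 1 kb of the Gnasxl start (chr2:174297859) lay 18 cytosines, all of them among the 59 counted for Nespas, which had 40.1%, 50.3% and 33.9% in the cKO libraries, against 38.7%, 57.5% and 64.9% in the control libraries. Exon 1A (starts between chr2:174327570 and chr2:174328023), the maternally methylated promoter next to Gs-alpha, had 34 cytosines at 32.9%, 37.3% and 32.3% in the cKO libraries, against 28.1%, 40.9% and 59.5% in the control libraries. At both, every cKO library lay below control replicates 2 and 3, and the library labelled control replicate 1 did too. The difference with all libraries was -12.3 points at Gnasxl (exact permutation p = 0.3) and -8.64 points at exon 1A (exact permutation p = 0.6). Leaving out that library gave -19.8 points at Gnasxl (exact permutation p = 0.2) and -16.0 points at exon 1A (exact permutation p = 0.1).

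Gs-alpha exon 1 (starts between chr2:174330006 and chr2:174330287) was close to unmethylated in every library. Its 26 cytosines had 1.21%, 1.21% and 1.51% in the cKO libraries, against 0%, 0% and 0.334% in the control libraries. The cKO libraries were all above the control libraries, by 1.2 points in the mean (exact permutation p = 0.1, the smallest this design gives) and by 1.14 points without the library labelled control replicate 1. This rested on 6, 4 and 5 methylated cytosine calls in the cKO libraries, against 0, 0 and 2 in the control libraries. The 48 and 52 reads behind the controls at 0 allow a level of up to 6.25% and 5.77% (3 counts of the reads), above every value measured in the cKO libraries. One further start, the last annotated one (chr2:174344650), lies in the body of the gene. Its 2 cytosines had 53.6%, 40.9% and 44.7% in the cKO libraries, against 50.8%, 88.6% and 75.6% in the control libraries, so that control replicates 2 and 3 stood apart from the other 4 libraries (-25.2 points, exact permutation p = 0.2, or -35.7 points without the library labelled control replicate 1, exact permutation p = 0.1).

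**Figure D2:**
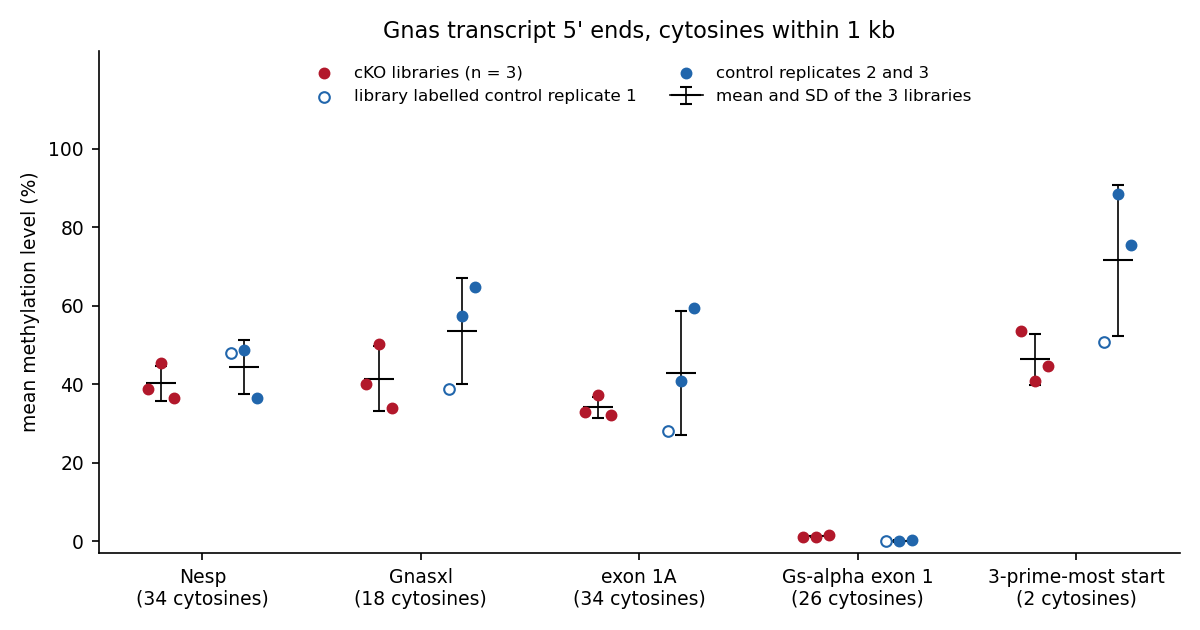
Mean methylation level (%) of cytosines within 1 kb of the Gnas transcript starts, ordered along the gene, 1 point per library, with cKO libraries in red at the left and control libraries in blue at the right of each pair; open circles show the library labelled control replicate 1, and bars give the mean and SD of 3 libraries. Nesp, Gnasxl and exon 1A are partly methylated in all 6 libraries, Gs-alpha exon 1 is at 1.51% or less, and the start inside the gene body separates control replicates 2 and 3, at 88.6% and 75.6%, from the other libraries.

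The promoters of Igf2r and Trappc9, like Gs-alpha exon 1, were close to unmethylated in both groups. Igf2r (chr17:12682406-12769664) had 1.17%, 0.247% and 1.53% in the cKO libraries, against 0.150%, 3.73% and 0.669% in the control libraries, a difference of -0.532 points (exact permutation p = 0.9), or -1.22 points without the library labelled control replicate 1 (exact permutation p = 0.5). Control replicate 2 alone exceeded 2%, and no group stood apart. Over all 23 cytosines Trappc9 (chr15:72589620-73061204) had 12%, 12.2% and 12.9% in the cKO libraries, against 11.8%, 30.5% and 29.0% in the control libraries. The difference was -11.4 points with all libraries (exact permutation p = 0.4) and -17.4 points without the library labelled control replicate 1 (exact permutation p = 0.1). This mean combined an unmethylated promoter with a methylated exon. The 15 cytosines within 1 kb of the 5' end had 0.476%, 0.912% and 1.25% in the cKO libraries, against 0%, 0.381% and 0% in the control libraries. The reads behind the controls at 0 were 41 and 62 and allow up to 7.32% and 4.84%, so the difference of 0.754 points (exact permutation p = 0.1), or 0.690 points without the library labelled control replicate 1 (exact permutation p = 0.2), was not resolved at these depths.

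The other 8 Trappc9 cytosines, 1 to 5 kb downstream in exon 2 and the next intron, had 33.6%, 33.3% and 34.7% in the cKO libraries, against 34.0%, 87.0% and 83.2% in the control libraries. The cKO libraries and the library labelled control replicate 1 were close together, and control replicates 2 and 3 were far above. The difference was -34.2 points with all libraries (exact permutation p = 0.2) and -51.3 points without that library (exact permutation p = 0.1). The cKO mean was 39.8% of that of control replicates 2 and 3.

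**Figure D3:**
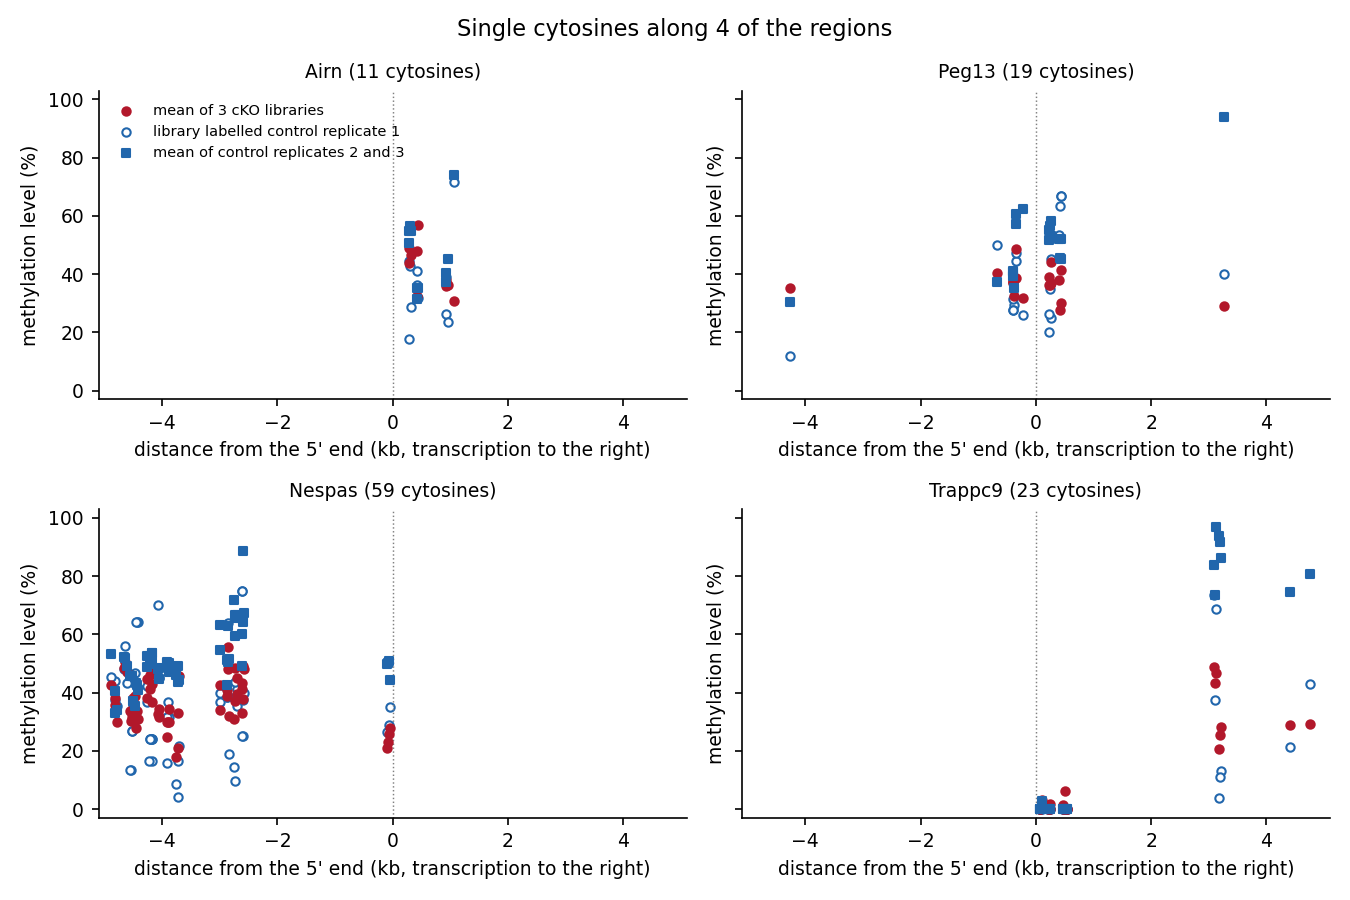
Methylation level (%) of single cytosines against the distance in kb from the 5' end, with transcription running to the right, for Airn, Peg13, Nespas and Trappc9; red circles are means of 3 cKO libraries, filled blue squares are means of control replicates 2 and 3, and open circles show the library labelled control replicate 1. Within 1 kb of the start red and filled blue average 44.3% and 44.2% at Airn and 37.3% and 49.6% at Peg13. At the 4 Nespas cytosines there they average 24.4% and 48.7%, with control replicates 2 and 3 themselves at 29.4% and 67.9%. Red and filled blue also part widely at the Airn cytosine at 1066 bp, the Peg13 cytosine at 3263 bp and the Trappc9 cytosines in and beyond exon 2.

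Within the control regions, reads rather than cytosines set the depth. Cytosines of 1 strand no more than 60 bp apart were grouped as read clusters, since a single read usually spans them. Levels within such a cluster differed little, with a median SD of 6.10 points at Airn, 4.67 at Peg13 and 6.43 at Nespas. Between clusters of a region the mean SD was 16.7, 15.7 and 12.6 points at the same genes. The reads behind a library's regional mean then numbered 78, 148 and 142 in the cKO libraries and 95, 91 and 102 in the control libraries at Airn, over 4 clusters. Nespas had 16 clusters, with 520, 663 and 657 reads in the cKO libraries and 400, 478 and 383 in the control libraries. For a single cytosine with 20 reads, a level of 40% has a 95% Wilson interval of 21.9% to 61.3%; the reads carry no molecular tags, so such limits reflect counting error alone.

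At Peg13 the printed stretch held the cluster with the most cytosines. Its 5 cytosines, up to 270 bp downstream, had 42.0%, 39.5% and 34.1% in the cKO libraries, against 30.3%, 51.2% and 58.8% in the control libraries, with 20 to 64 reads. The window of 100 bp that holds them (chr15:72810001-72810100) had the most reads of the Peg13 region and differed by -8.28 points with all libraries (quasi-binomial test, q = 0.459) and by -16.5 points without the library labelled control replicate 1 (q = 0.00678). A further Peg13 cytosine lies 3263 bp downstream in the transcribed part. It had 25%, 18.8% and 43.8% in the cKO libraries, against 40%, 100% and 87.5% in the control libraries, on 8 to 16 reads. There the methylation of control replicates 2 and 3 was not intermediate.

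At Airn the levels of the 3 clusters in the first 1 kb overlapped between the groups. Together these 10 cytosines had 51.2%, 41.5% and 40.1% in the cKO libraries, against 33.2%, 41.0% and 47.3% in the control libraries, so the mean without the library labelled control replicate 1 was 44.3% in cKOs and 44.2% in controls. The remaining cytosine, 1066 bp downstream, had 10%, 44.4% and 37.5% in the cKO libraries, against 71.4%, 70% and 77.8% in the control libraries. It was covered by 7 to 10 reads and was the only Airn cytosine at which every cKO library lay below every control library.

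Methylation was set against the body of the same locus, a comparison added after the data were seen. The body was taken as cytosines within the genes of the locus and more than 5 kb from any 5' end described above. The 20 body cytosines of Airn and Igf2r had 37.4%, 40.6% and 18.0% in the cKO libraries, against 22.6%, 75.5% and 70.5% in the control libraries. The 126 of Trappc9 had 35.8%, 31.7% and 25% in the cKO libraries, against 29.3%, 72.9% and 75% in the control libraries. The 5 of Gnas and Nespas had 23.7%, 36.3% and 32.4% in the cKO libraries, against 41.6%, 78.1% and 85.8% in the control libraries. In each body, control replicates 2 and 3 were above all other libraries, and the cKO mean was 43.8%, 41.7% and 37.6% of theirs, where the control regions were at 91.8%, 72.1% and 72.4%.

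The difference between control region and body was then formed within each library. Airn minus body was 10.1, 1.15 and 21.8 points in the cKO libraries, against 14, -31.8 and -20.4 points in the control libraries. Peg13 minus body was 4.66, 7.19 and 5.79 points in the cKO libraries, against 9.48, -19.4 and -26.6 points in the control libraries. Nespas minus body was 15.2, 3.04 and 0.972 points in the cKO libraries, against -6.25, -28.2 and -33.1 points in the control libraries. The control region stood above the body in all cKO libraries and below it in control replicates 2 and 3, at all 3 loci. cKO minus control, this was 23.8 points at Airn (exact permutation p = 0.3), 18.1 at Peg13 (exact permutation p = 0.4) and 28.9 at Nespas (exact permutation p = 0.1), and 37.1, 28.9 and 37.0 points without the library labelled control replicate 1 (exact permutation p = 0.1 each). In control replicates 2 and 3 the bodies averaged 73.0%, 74.0% and 82.0%, and the control regions 46.9%, 50.9% and 51.3%. Loss of an equal share at both would also raise this difference, so it cannot separate equal from unequal shares lost.

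**Figure D4:**
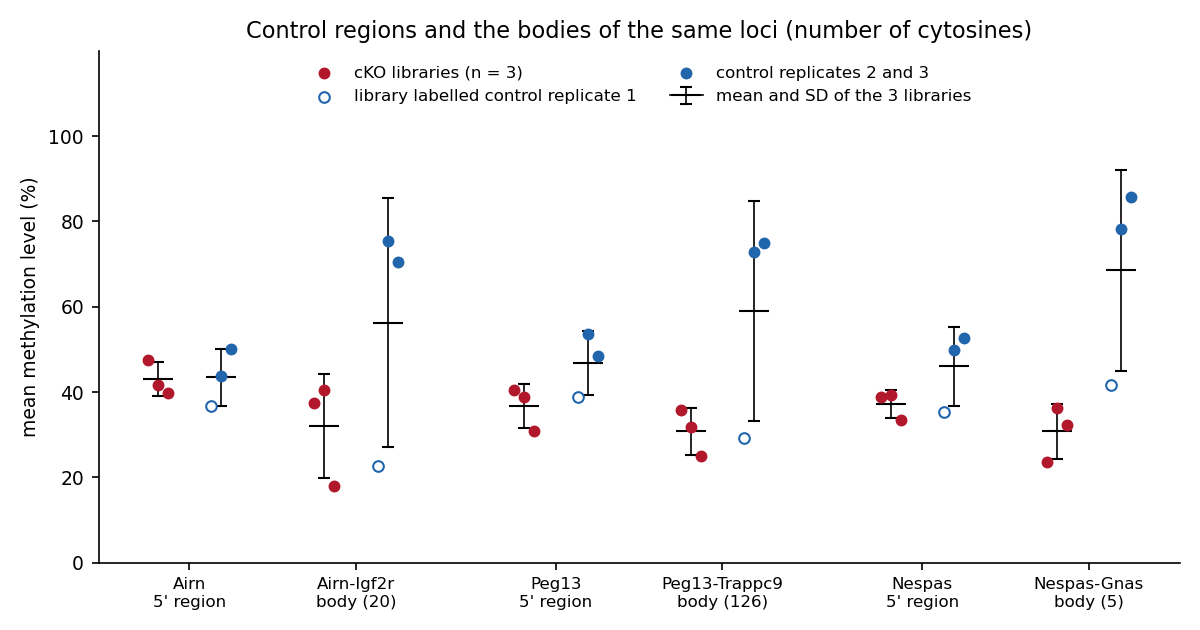
Mean methylation level (%) within 5 kb of the 5' ends of Airn, Peg13 and Nespas, each beside the body of its locus (number of cytosines in parentheses), 1 point per library, with cKO libraries in red at the left and control libraries in blue at the right of each pair; open circles show the library labelled control replicate 1, and bars give the mean and SD of 3 libraries. In the bodies the cKO libraries lie between 18.0% and 40.6% and control replicates 2 and 3 between 70.5% and 85.8%, while the control regions stay between 30.8% and 53.5% in all libraries.

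Each control region was also set against the other gene of its locus within each library, over 5 kb. None of the 3 differences exceeded the spread between libraries by the exact permutation test. Airn minus Igf2r was 46.3, 41.5 and 38.3 points in the cKO libraries, against 36.5, 39.9 and 49.4 points in the control libraries, a difference of 0.0836 points (exact permutation p = 1.0). Peg13 minus Trappc9 was 28.5, 26.7 and 17.9 points in the cKO libraries, against 27.0, 23.0 and 19.4 points in the control libraries, a difference of 1.23 points (exact permutation p = 0.9). Nespas minus Gnas was 1.62, -4.59 and -1.38 points in the cKO libraries, against -9.60, 1.42 and 15.3 points in the control libraries, a difference of -3.81 points (exact permutation p = 0.8). Without the library labelled control replicate 1 these differences were -2.64, 3.16 and -9.79 points (exact permutation p = 0.6, 0.5 and 0.2). The values at Peg13 and Nespas depended on the distance. Within 1 kb, where the methylated Trappc9 exon is left out, Peg13 minus Trappc9 turned to -10.0 points (exact permutation p = 0.2), and Nespas minus Gnas was -16.8 points (exact permutation p = 0.5), with all libraries.

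In the quasi-binomial test over the 5' regions of 25381 annotated genes, a region was called lower in cKOs when its q (Benjamini-Hochberg) was under 0.01 and the cKO mean was lower by 25 points or more. With all 6 libraries 0 of the 6 members were called, and 0% of all regions (3452 regions and 0 members had an unadjusted p under 0.05; limma on transformed levels called 0, with 1957 regions and 0 members at that level, and a plain binomial test called 4716 regions and 0 members). Without the library labelled control replicate 1, still 0 of 6 members were called, against 27.1% of all regions and 67.9% of those whose control mean was 25% or more. Among regions at 30 to 70% in control replicates 2 and 3 that share was 50.6%. Igf2r, at 2.21% in those controls, could not fall by 25 points, and Trappc9, at 27.9%, could do so only if nearly emptied. With no minimum difference, 3 of 6 members were lower at that q, against 36.9% of all regions. These were Nespas (-15.0 points, q = 0.000792), Trappc9 (-15.9 points, q = 0.00183) and Peg13 (-15.0 points, q = 0.00969), with reads summed. Gnas (-4.39 points, q = 0.168), Airn (-3.13 points, q = 0.525) and Igf2r (-1.23 points, q = 0.433) were not. The minimum of 25 points is a larger part of the methylation of a partly methylated region than of a fully methylated one.

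The same test on 100 bp windows gave positions inside the regions. Of 57 member windows 0 were called with all 6 libraries, as were 0% of all 285466 windows (43457 windows and 2 member windows had an unadjusted p under 0.05, and limma found 31616 and 3 at that level and called 0, while a plain binomial test called 107040 and 7). Without the library labelled control replicate 1, 4 of 57 were lower, against 43.8% of all windows, and where the controls averaged 25% or more it was 4 of 47, against 67%. Among all windows at 30 to 70% in control replicates 2 and 3, a smaller share, 33.8%, was lower by the same rule. With no minimum difference 7 of 57 member windows were lower, against 44.8% of all windows. Of the 4 windows 2 were in Trappc9 exon 2. The first of these (chr15:73058001-73058100, in the printed stretch) had 32.9%, 30.4% and 38.1% in the cKO libraries, against 24.4%, 89.5% and 88.4% in the control libraries (-55.2 points without the library labelled control replicate 1, q = 7.78e-07). The others were the neighbouring Trappc9 window (-57.9 points, q = 0.000513), the window of the single Peg13 cytosine at 3263 bp (-64.6 points, q = 0.00745) and a Nespas window (chr2:174298101-174298200). That Nespas window, near the Gnasxl start, had 50.5%, 38.5% and 32.5% in the cKO libraries, against 27.2%, 65.2% and 66.4% in the control libraries (-25.3 points, q = 0.00127).

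Windows with the most reads in their region were Airn chr17:12741701-12741800, Nespas chr2:174299601-174299700 and Gnas chr2:174285301-174285400. With all libraries these differed by 11.0, 1.91 and -2.17 points, cKO minus control (q = 0.860, 0.967 and 0.907). Without the library labelled control replicate 1 they differed by 11.8, -7.44 and 11.7 points (q = 0.727, 0.133 and 0.354), so that the direction turned at Nespas and Gnas. At Airn and Nespas the same windows had the most positive difference of their region with all libraries. Where the controls averaged 25% or more, the most positive difference was 10.6 points at Gnas, 0.209 at Peg13 and -28.2 at Trappc9. The windows with the most reads at Igf2r and Trappc9 were in the unmethylated promoters, at 0.560%, 0.192% and 2.34% in the cKO libraries, against 0.336%, 3.51% and 0.772% in the control libraries, for Igf2r, and at 0.667% or less in all libraries for Trappc9. The most negative differences with all libraries were -42.4 points at the Airn window of the cytosine at 1066 bp (q = 0.428), -46.7 points at Peg13 (the window of the cytosine at 3263 bp, q = 0.408), -38.6 points at Trappc9 (q = 0.462), -22.9 points at Nespas (q = 0.417) and -15.3 points at Gnas (q = 0.751). Each of these 5 windows held 1 cytosine. None passed the test.

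The share of control methylation that the cKO libraries carried was computed for windows where control replicates 2 and 3 averaged at least 25%. Over 186670 such windows its median was 41.7%, with quartiles of 34.1% and 51.3%. The median was 89.3% over 5 Airn windows, 73.5% over 9 Peg13 windows, 73.7% over 18 Nespas windows and 84.1% over 10 Gnas windows. Of these 42 windows 37 were above the upper quartile of all such windows, whose median level in control replicates 2 and 3 was 82.8%. Neighbouring windows of the 3 loci can share reads, so this count is not of independent sites. The 5 Trappc9 windows had a median of 38.0%, with 1 above that quartile. Windows that began at a like level, 30 to 70% in control replicates 2 and 3, had a median of 44.3%, with quartiles of 34.4% and 55.7%, over 43763 windows.

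**Figure D5:**
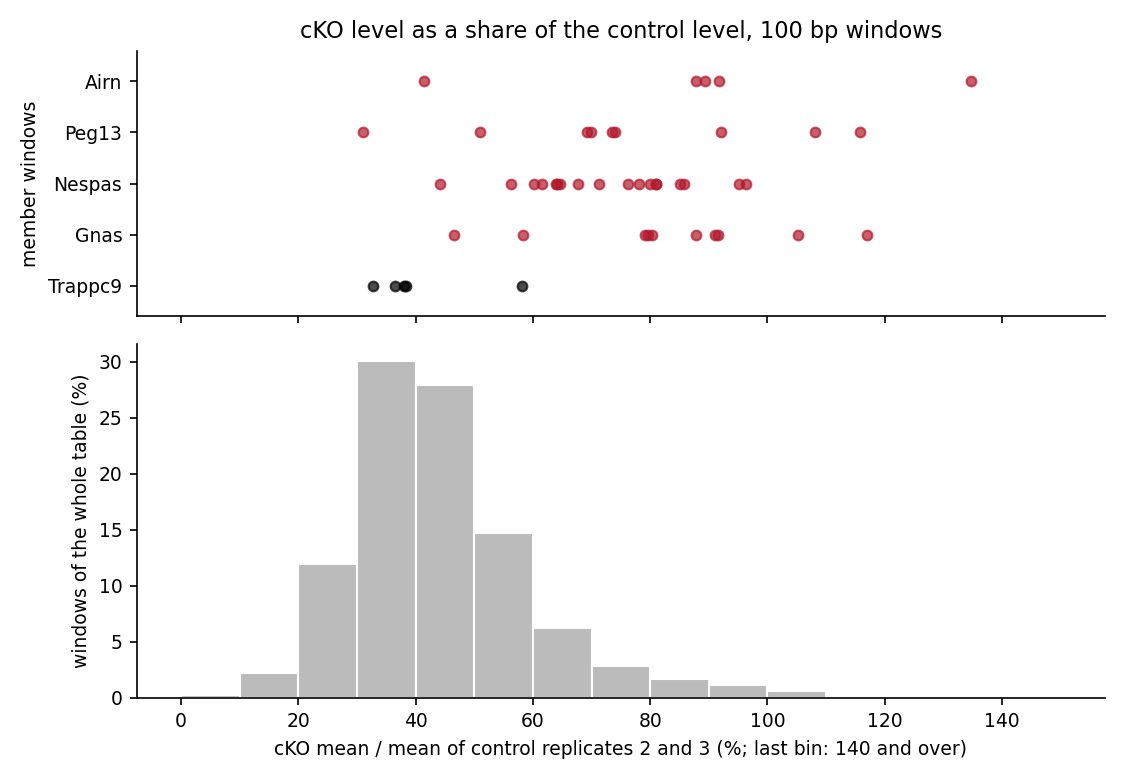
The cKO mean as a percent of the mean of control replicates 2 and 3 for 100 bp windows where those controls averaged at least 25%; points above are the windows of Airn (5), Peg13 (9), Nespas (18), Gnas (10) and Trappc9 (5), and bars below give the percent of 186670 windows of the whole table in bins of 10 points. The bulk of the table lies between 30 and 50%, where 4 of the 5 Trappc9 windows lie, and 37 of the 42 windows of the other 4 genes lie above 51.3%.

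Single cytosines were counted without a test. Every cKO library was below every control library at 12 of 170 cytosines, against 8.56% of all cytosines, and at 11 of the 136 whose control mean was 25% or more, against 17.3%. Without the library labelled control replicate 1 it was 47 of 170, against 43.9% of all, and 45 of the 130 whose control mean was 25% or more, against 87.5%. Those 45 were divided unevenly. They were 8 of 8 at Trappc9, 8 of 19 at Peg13, 23 of 59 at Nespas, 4 of 33 at Gnas and 2 of 11 at Airn. Neighbouring cytosines share reads, so these counts are not of independent sites.

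Intermediate levels were common at the control regions in both groups. Cytosines between 30% and 70% made up 72.7%, 90.9% and 81.8% of Airn cytosines in the cKO libraries, against 54.5%, 100% and 36.4% in the control libraries. At Peg13 they made up 78.9%, 89.5% and 52.6% in the cKO libraries, against 57.9%, 89.5% and 68.4% in the control libraries. At Nespas it was 64.4%, 74.6% and 64.4% in the cKO libraries, against 55.9%, 81.4% and 79.7% in the control libraries. Over all 646645 cytosines such levels made up 28.9%, 27.8% and 19.2% in the cKO libraries, against 20%, 12% and 12.1% in the control libraries. At the coverage of these files, counting error alone can carry a cytosine across either bound.

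The sequence around the 5' ends also differed among the members. TGCCGC, searched on both strands, is the core of the motif that the zinc finger protein Zfp57 binds in mouse when it is methylated, and Zfp57 is known for keeping methylation at imprinted control regions. Within 1 kb of the 5' end there were 5 matches at Airn, 6 at Peg13 and 5 at Nespas, and 2 at Gnas, 1 at Igf2r and 1 at Trappc9. At least 1 match was found in 28.6% of 55413 gene starts and at least 5 in 0.596%. Within that 1 kb the cKO mean was 100%, 75.1% and 50.1% of that of control replicates 2 and 3 at Airn, Peg13 and Nespas. At Gnas it was 88.9%. Whether matches go with the share carried was not tested. The printed Peg13 stretch holds 3, and 1 of them includes a counted cytosine, 270 bp downstream. That cytosine had 50.0%, 45.3% and 37.5% in the cKO libraries, against 45%, 51.4% and 65.4% in the control libraries, on 20 to 64 reads. Matches at Gnas and, more than 1 kb upstream, at Nespas held other counted cytosines. Within 1 kb Airn had 37.5 CpGs per kb, Peg13 44.0, Nespas 39.0 and Gnas 54.0, while the unmethylated promoters had 62.5 at Igf2r and 30.5 at Trappc9. A relation of CpG density to methylation was not tested. A match is a run of letters and not a measured binding site.

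Other imprinted genes with a methylated control region were counted as a list of 23, of which 19 had a tested region. Of these, 5 were lower by the same rule when the library labelled control replicate 1 was left out, and 0 with all libraries (quasi-binomial test, 1 at an unadjusted p under 0.05). These 5 of 19 stand against 27.1% of all regions, and the 5 of 13 whose control mean was 25% or more against 67.9%. Not every tested 5' region of the list was methylated. Control replicates 2 and 3 averaged 0.181% at Rasgrf1 and 2.54% at Grb10, which could not fall by 25 points. Peg10 and Sgce, both among the 5, are counted on the same 12 cytosines. For those 13 the median share of control methylation carried by cKOs was 57.1%, between 31.0% at Impact and 87.6% at Kcnq1ot1, against a median of 42.1% and quartiles of 36.6% and 49.7% over all such regions. Genes that flank the 3 loci, a list of 16 with 13 tested, had 3 lower by that rule when that library was left out and 0 with all libraries (3 at an unadjusted p under 0.05). That is 3 of 13, against 27.1% of all regions, and 3 of the 6 with a methylated control mean, against 67.9%. Their median share was 39.2% over those 6, between 26.6% at Tubb1 and 46.9% at Ctsz. No list was tested as a set.

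Genes whose level within 1 kb of the 5' end was most like each control region were sought among 11360 genes, by the root mean square difference over the 6 libraries. For Airn they were Zrsr1, itself imprinted (6.39 points), Gm26796 (6.87 points) and Gm23134 (7.11 points). Zrsr1 had 39.2%, 38.4% and 36.6% in the cKO libraries, against 34.6%, 46.1% and 40.2% in the control libraries. For Peg13 they were Rybp-ps (5.07 points), Gm43580 (5.11 points) and Msgn1 (5.29 points). For Nespas, with 4 cytosines within 1 kb, they were Noxa1 (11.8 points), D7Bwg0826e (11.9 points) and Rybp-ps (12.1 points). Likeness in 6 values is a description of levels only.

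The coverage rule had its own edges. Cytosines listed in only 5 libraries were left out, 19 at Gnas, 12 at Nespas, 8 at Igf2r, 4 at Peg13 and 2 at Trappc9. At Nespas these averaged 10.3%, 15.9% and 22.1% in the cKO libraries, against 31.8%, 31.7% and 40.8% in the control libraries, each over the cytosines listed there. The nearest cytosine beyond 5 kb of Nespas, at 5011 bp, had 80%, 26.1% and 26.1% in the cKO libraries, against 38.9%, 38.5% and 86.2% in the control libraries, and the farthest one inside, at 4892 bp, had 36.0%, 55.6% and 36.4% in the cKO libraries, against 45.5%, 71.4% and 35.3% in the control libraries. Beyond 5 kb of Peg13, at 5127 bp, 1 cytosine had 22.2%, 2.13% and 14.3% in the cKO libraries, against 16.7%, 68.6% and 63.0% in the control libraries.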

How the data were processed

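Ox-RRBS DNA was digested with MspI, oxidised so that 5-hydroxymethylcytosine is read as T, and converted with bisulfite. The authors aligned reads without mismatches and dropped thinly covered cytosines. Per the submitters' processing notes the build was GRCm38 and methylKit was among the tools. For every cytosine the deposited tables hold a read count (coverage) and the percent of reads with C and with T, not normalized between libraries. Methylated reads were recovered from both; all cytosines on the assembled chromosomes were CpGs of GRCm38.

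Cytosines with at least 6 reads in all 6 libraries were used. Library means weighted cytosines equally and were compared with a two-sided exact permutation test. Reads summed over 5' regions of genes (5 kb, at least 3 cytosines) and 100 bp windows were tested with a quasi-binomial F test, with the dispersion moderated as in limma (prior from features at 5 to 95% pooled level, floor of 1) and Benjamini-Hochberg adjustment over the whole table; calls required q under 0.01 and 25 points. The tools were limma 3.58.1 in R 4.3.3, and scipy 1.17.1, numpy 2.4.6, matplotlib 3.10.9 and pandas 2.3.3 in Python 3.11.15, and the test was checked on simulated data. Named were the 6 members, the Gnas starts over 1 kb apart (the start at which no cytosine was shared is not described), in each region the window with most reads and, where controls averaged 25% or more, those with the extreme differences, extremes of 2 gene lists, and the 3 genes most like each control region. Windows called without control replicate 1 were named after their values were seen.

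Members and lists were chosen with earlier results of these data known. The library labelled control replicate 1 was left out in the second value of each comparison because of its methylation, which is the outcome. Alternatives were each library left out, coverage of 10 or 20 reads, 1 and 2 kb, summed reads, other tests and thresholds, and a replicate block.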

Additional observations from a re-analysis of the deposited data

How the results depend on the processing

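Across alternatives, 0 members were called lower in the test of 5' regions in all 14. Most of these called 0 regions of the whole table, so that 0 members there was fixed. Only leaving out the library labelled control replicate 1, the plain binomial test and the replicate block called any region. Leaving out any 1 library gave 0 to 4 of 57 windows, 4 without the library labelled control replicate 1. The plain binomial test, which treats reads as replicates, called 7 windows. Over the whole tables, leaving out that library called 6877 regions and 125019 windows, and the plain binomial test 4716 and 107040, against 0 and 0 with all libraries. Cytosines without overlap numbered 12 of 170 (8.56% of all cytosines), with 47 of 170 when that library was left out (43.9% of all), 9 at 10 reads (7.2% of the member cytosines left and 8.79% of all) and 2 of 45 at 20 reads (4.44%, and 9.36% of all), where fewer cytosines were left. Within 1 or 2 kb the Trappc9 difference was 0.754 points, against -11.4 within 5 kb, because exon 2 was dropped, and Peg13 minus Trappc9 was -10.0 points. Nespas minus Gnas was -16.8 points within 1 kb, where Nespas has 4 cytosines. At 20 reads 0 Trappc9 cytosines were left, so that no value was possible. Leaving out 1 library at a time, the differences ranged from -8.09 to -2.57 points at Gnas, -14.2 to -5.45 at Nespas, -14.2 to -6.86 at Peg13, -17.4 to -8.03 at Trappc9, -3.86 to 2.86 at Airn and -1.22 to 0.575 at Igf2r. Control region minus body kept its sign when any 1 library was left out, from 14.2 to 37.1 points at Airn, 10.8 to 28.9 at Peg13 and 23.6 to 37.0 at Nespas. An equal share lost at region and body would give the same sign.

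Same-numbered libraries correlated at -0.191, 0.0555 and -0.238 in their deviations over windows. The library labelled control replicate 1 stood far from the other controls over the whole table, so these values cannot decide whether replicate numbers pair the libraries. With the replicate block 0 members and 0 member windows were called, and 18 regions of the whole table. Within-number differences equal those of the means by arithmetic in this design, at -8.82 points for Nespas.

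Depth limits these regions: 7 to 10 reads cover the single Airn cytosine at 1066 bp, and levels at the unmethylated promoters rest on few methylated calls.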

Other observations

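The clusters here were chosen after their values were seen. Within regions of intermediate methylation, some read clusters differed between libraries of 1 group by more than the groups differed. The 7 Gnas cytosines of the printed Nesp stretch had 30.5%, 39.6% and 24.8% in the cKO libraries, against 61.6%, 31.6% and 8.20% in the control libraries, on 28, 56 and 39 reads and on 20, 50 and 15 reads. The 4 Nespas cytosines just upstream of the 5' end had 30.7%, 31.3% and 11.2% in the cKO libraries, against 29.2%, 29.4% and 67.9% in the control libraries. The 3 Airn cytosines at the distal end of the printed stretch had 66.5%, 41.1% and 29.7% in the cKO libraries, against 36.4%, 46.1% and 21.7% in the control libraries. The highest library was the one labelled control replicate 1 at Gnas, control replicate 3 at Nespas and cKO replicate 1 at Airn, and control replicate 3 was the lowest at Gnas and Airn.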
